A study of Mus musculus with 4 samples.

Results

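The genes described are the nuclear genes of oxidative phosphorylation (OXPHOS): those whose symbol starts with Nduf, Uqcr, Atp5, Sdha, Sdhb, Sdhc or Sdhd, or with Cox followed by a digit from 4 to 8. Symbols with "-ps" were to be left out, and 0 matched. The rule gave 97 of the 31053 features in the files, with 96 symbols, because Atp5o has 2 gene IDs. By role, 7 were core, 29 accessory and 8 assembly genes of complex I, 4 subunit and 4 assembly genes of complex II, 8 subunit genes of complex III, 20 of complex IV, and 5 and 12 of the F1 and of the Fo and stalk parts of ATP synthase. They were measured by 10x Genomics 3' single-cell RNA sequencing of sorted, reporter-positive cells from mouse duodenal crypts, with 2 libraries per genotype. The WT libraries carry Atoh1CreER-T2 and R26RTom. The APC-KO libraries carry floxed alleles of Apc and R26RTom with a Cre that their labels name Atoh1Cre and the series description names Atoh1CreER-T2. All mice received 2 doses of tamoxifen, 1 mg/mL, 24 h apart, and crypts were taken 12 h after the last dose. Atoh1 is a gene of secretory progenitors, so the driver limits both the red reporter and the loss of Apc to cells in which it was active and to their descendants. Neither age nor sex, nor whether the libraries of a genotype came from separate animals, is given in the labels, so p-values measure the spread between libraries, which may be technical.

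OXPHOS is the route by which mitochondria turn the electrons of nutrients into ATP. Complex I takes electrons from NADH and complex II, which is also an enzyme of the citric acid cycle, takes them from succinate. Complex III passes them through cytochrome c to complex IV, which reduces oxygen, and ATP synthase uses the resulting proton gradient. A few core subunits are encoded in mitochondrial DNA, while the others, and the assembly factors that build the complexes, are encoded in the nucleus. In the crypt, stem cells and absorptive progenitors are known for active mitochondria, while Paneth cells are known for a more glycolytic metabolism.

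Nuclear OXPHOS genes are known targets of NRF1, of ETS-family factors such as GABPA and of YY1, and their promoters were therefore searched on both strands. RefSeq promoters (GRCm38.p6, 250 bases before to 50 after a start site) were found for 80 of the 96 symbols, 85 promoters in all. The NRF1 letters GCGCATGCG were present in 10 of the 85 (11.8%), against 1.75% of all 32851 promoters of the same length. The ETS letters CCGGAAG were present in 24.7% against 8.86%, and the YY1 letters AAGATGGCG in 9.41% against 1.40%. For the TATA letters TATAAA the shares were 10.6% and 13.6%. The ETS and YY1 letters could overlap, but the 2 promoters of these genes with both held them apart. Mean GC content was 58.1% against 53.8%, and its part in these shares was not tested. Stretches around the NRF1 letters that lie before the start site are shown because they are a sequence shared by genes of different complexes. Capitals mark the NRF1 letters, which extend by 1 base where matches on both strands overlap.
Atp5k (ATP synthase subunit e), chr5:108434430-108434474, minus strand: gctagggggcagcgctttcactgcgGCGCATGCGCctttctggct
Atp5g2 (ATP synthase subunit c), chr15:102671070-102671099, minus strand: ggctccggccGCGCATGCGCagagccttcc
Atp5l (ATP synthase subunit g), chr9:44920964-44920992, minus strand: aaccaataaCGCATGCGCatttcccccac
Cox6a1 (complex IV), chr5:115349101-115349145, minus strand: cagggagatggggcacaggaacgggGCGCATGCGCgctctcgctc
Ndufa11 (complex I), chr17:56717677-56717721, plus strand: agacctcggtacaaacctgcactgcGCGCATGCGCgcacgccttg
Ndufaf4 (complex I assembly), chr4:24897945-24897989, plus strand: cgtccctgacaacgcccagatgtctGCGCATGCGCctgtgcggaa
A match is a description of the letters and not evidence of binding. In the other matching promoters, of Ndufa8, Uqcr11, Ndufaf5 and Uqcrc1, the letters begin at positions -9, -5, 16 and 30 from the start site.

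The 100 bases before the start sites of the Cox7a genes are shown because these genes had the most unlike cell type patterns within a family. None of the searched motifs was found in their promoters.
Cox7a1, chr7:30184071-30184170, plus strand: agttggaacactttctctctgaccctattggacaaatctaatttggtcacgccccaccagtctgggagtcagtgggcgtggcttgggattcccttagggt
Cox7a2, chr9:79759854-79759953, minus strand: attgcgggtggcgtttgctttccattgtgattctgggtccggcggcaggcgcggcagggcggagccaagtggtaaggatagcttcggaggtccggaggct
Cox7a2l, chr17:83514334-83514433, minus strand: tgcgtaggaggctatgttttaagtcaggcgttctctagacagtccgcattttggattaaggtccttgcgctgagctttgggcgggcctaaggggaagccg

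The authors kept 4814 and 3821 cells in the WT libraries and 356 and 6243 in the APC-KO libraries, with 24677647, 21003179, 3009636 and 27285079 UMIs. APC-KO replicate 1 kept 5.15% of its UMIs, against 37.6% to 50.3% in the others, and it has the least precise values. The libraries shared between 1 and 8 cell barcodes per pair. Of the 9 cell type marker lists, 8 had their highest sum of CPM (UMIs of a gene per 1000000 UMIs) in the type they mark in each library, and the list of SEC-PRO was highest in SEC-PRO in WT and in GP in APC-KO. Apc itself was at 87.2 and 77.9 CPM in WT, and at 88.1 CPM in each APC-KO library. By edgeR it differed by 0.19 on the log2 scale (SE 0.16), with an adjusted p of 1.00. The reads come from the 3' end and the floxed exons are not named, so this level checks neither the deletion nor the labels.

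Over all kept cells, nuclear OXPHOS genes gave 2.65% and 2.05% of all UMIs in the WT libraries, and 2.52% and 3.09% in the APC-KO libraries. Complex IV gave the most of any role, 0.763%, 0.547%, 0.771% and 0.896% in the same order, and the assembly factors of complex II the least, 0.00988%, 0.0102%, 0.00864% and 0.00954%. Levels below are CPM of 3' UMIs, which count transcript ends and were not divided by transcript length. By mean CPM, 17 genes lay at 500 or more, 56 from 100 to under 500, 14 from 10 to under 100, 3 from 1 to under 10, and 7 under 1.

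In each complex the most abundant transcript was that of a ubiquitous subunit. Cox4i1, a structural subunit of complex IV, had 1218, 1130, 998 and 1302 CPM. Values in this order are of WT replicate 1, WT replicate 2, APC-KO replicate 1 and APC-KO replicate 2. Atp5b, the catalytic beta subunit of ATP synthase, had 818, 771, 626 and 912 CPM. Uqcrh, the hinge subunit of complex III, had 677, 488, 685 and 709 CPM, with WT replicate 2 the lowest. Ndufb9, an accessory subunit of complex I, had 437, 415, 346 and 465 CPM. Sdhb, the iron-sulfur subunit of complex II, had 182, 188, 126 and 178 CPM, with both APC-KO libraries below both WT libraries. For Uqcrh both lay above, and for the other 3 genes the genotypes overlapped.

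Of the isoforms with narrow expression in other tissues, most were at or near 0. Cox7b2, Cox8b, Cox8c and the second Atp5o ID had 0 UMIs in the 4 libraries. Cox6a2 had 1 UMI, Ndufa4l2 had 3 and Cox4i2 had 4. Against these, Cox8a had 1034, 689, 1106 and 1204 CPM, and Cox6a1 had 501, 384, 430 and 485 CPM. Cox7b had 504, 316, 531 and 657 CPM, and Ndufa4, long counted with complex I and now placed in complex IV, had 576, 382, 602 and 625 CPM. Cox6b2, known from testis, was low, at 3.32, 1.95, 1.33 and 5.53 CPM, while Cox6b1 had 596, 385, 657 and 711. Of the Cox6b2 UMIs, the cells named ISC held 40, 14, 0 and 66, which is the highest count of any cell type in 3 of 4 libraries. Assembly factors were low beside the subunits, from Ndufaf8 at 64.8, 41.7, 53.5 and 74.1 CPM to Ndufaf5 at 9.81, 9.09, 7.31 and 10.3 CPM.

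The 12 cell types differed widely in how much of their RNA came from nuclear OXPHOS genes. ENTERO-PRO cells, which carry enterocyte markers, had the largest share, at 5.52% and 5.14% in WT and 5.93% and 4.98% in APC-KO. ISC cells, which carry stem cell markers, came next with 4.10%, 3.49%, 5.19% and 4.05%, below ENTERO-PRO in 4 of 4 libraries. PANETH cells had the smallest share, at 0.63% and 0.55% in WT and 1.29% and 1.33% in APC-KO, and GOBLET cells the next smallest, at 1.47%, 1.12%, 1.38% and 1.59%. The authors' names come from the same cells, so differences between types are described without a test.

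**Figure D1:**
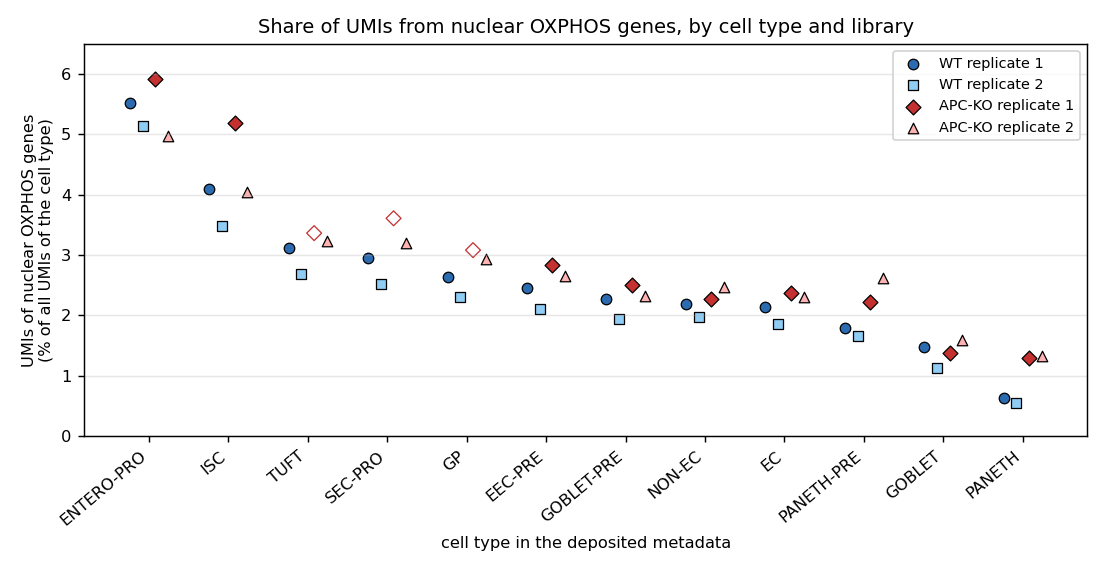
Share of UMIs from nuclear OXPHOS genes (y axis, percent of all UMIs of the cell type) in the 12 cell types (x axis, ordered by the WT mean), with 1 point per library and open points where a library had under 10 cells of the type. ENTERO-PRO lies highest, between 4.98% and 5.93%, and the WT libraries of PANETH lowest, at 0.63% and 0.55%.

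Between these ends the order was close. TUFT was above SEC-PRO in the 3 libraries with at least 10 cells of both, by as little as 0.037 percentage points, SEC-PRO above GP in 3 of 3, and GP above EEC-PRE in 3 of 3. EEC-PRE was above GOBLET-PRE in 4 of 4 libraries. GOBLET-PRE and NON-EC exchanged places in 2 of 4 libraries, NON-EC and EC in 1 of 4, and EC and PANETH-PRE in 1 of 4, so these 4 types could not be ranked. The pooled ranges over the libraries overlapped for 9 of the 11 neighbouring pairs.

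A share depends on what else the cell transcribes. Defensins gave 46.1% and 41.8% of the UMIs of WT PANETH cells, and goblet marker genes 41.4% and 45.1% of those of WT GOBLET cells. Both sets and the Paneth marker genes Lyz1, Itln1, Ang4 and Mmp7 were then left out of the total. The OXPHOS share was 1.56% and 1.29% in WT PANETH and 2.52% and 2.06% in WT GOBLET, still 5.69% and 5.27% in WT ENTERO-PRO. Per 100 UMIs of cytosolic ribosomal protein genes, WT GOBLET cells had 35.3 and 39.2 OXPHOS UMIs and WT ENTERO-PRO cells 29.1 and 29.9, while WT PANETH-PRE cells had 9.17 and 8.62. The free RNA of barcodes with 1 to 50 UMIs had OXPHOS shares of 2.99%, 2.54%, 3.38% and 3.30%, below those of ISC in each library and above those of GOBLET and PANETH.

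Gene by gene, each type was compared with the mean of the other types in the same library, as a difference in log2(CPM + 1) after TMM scaling (a factor per sum that aligns most genes). Of the 97 genes, 87 had at least 10 mean CPM and entered. In ENTERO-PRO the median difference was 1.25 (SD 0.16 over 4 libraries), and 82 of 87 genes were higher in every library and 0 lower, against 27.4% and 24.7% of all genes. In ISC it was 0.76 (SD 0.14), with 79 of 87 higher and 0 lower, against 33.6% and 29.8%. In NON-EC it was -0.70 (SD 0.16), with 78 of 87 lower and 2 higher, against 31.7% and 23.3%. In EC, which carries enterochromaffin markers, it was -0.61 (SD 0.04), with 72 lower and 2 higher, against 28.5% and 30.0%. Of the 87 genes 75 had their highest value in ENTERO-PRO and 7 in ISC, while 43 had their lowest in NON-EC, 19 in GOBLET and 12 in EC.

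**Figure D2:**
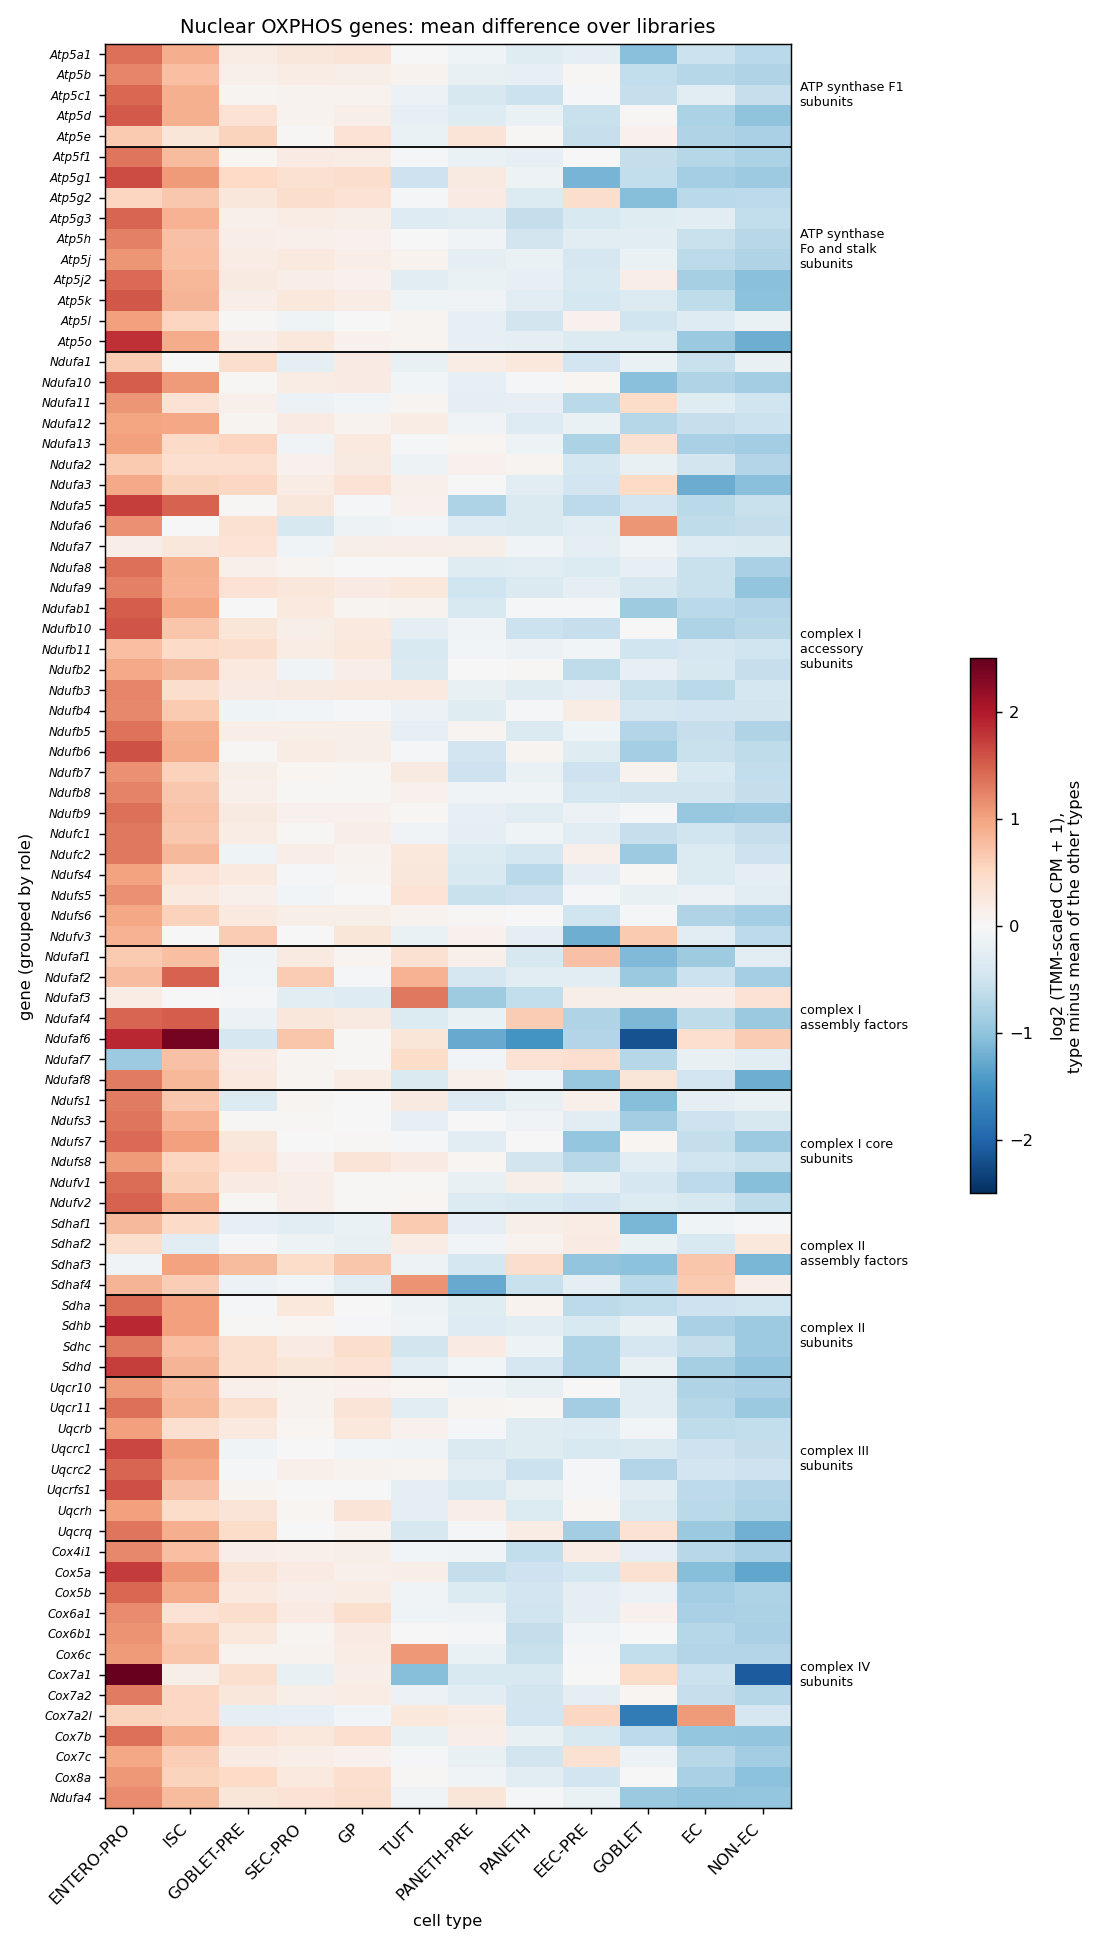
Mean over libraries of the difference in log2(TMM-scaled CPM + 1) between a cell type and the other types (colour, ending at 2.5 in either direction), for 86 of the 87 genes, grouped by role (rows), in the 12 types (columns). ENTERO-PRO and ISC are red and EC and NON-EC blue for nearly all genes. Cox7a2l, which is highest in EC, and Ndufaf7, which is lowest in ENTERO-PRO, depart from this.

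In the other types the genes stayed nearer to the rest of the transcriptome. The median difference was 0.18 in GOBLET-PRE, 0.13 in SEC-PRO, 0.13 in GP, -0.03 in TUFT, -0.15 in PANETH-PRE, -0.26 in PANETH, -0.28 in EEC-PRE and -0.32 in GOBLET. Counts of genes higher and lower in every library were 51 and 3 in GOBLET-PRE, where all genes had 50% and 11.7%. They were 54 and 5 in SEC-PRO (39.4% and 31.2% of all genes), 57 and 7 in GP (43.9% and 22.3%) and 27 and 32 in TUFT (30.6% and 35.2%). They were 7 and 26 in PANETH-PRE (22.6% and 16.5%), 2 and 23 in PANETH (19.1% and 16.1%), 8 and 48 in EEC-PRE (27.0% and 29.7%) and 4 and 46 in GOBLET (29.4% and 30.4%). In TUFT the members' shares were close to the background, and in GOBLET-PRE and GP the background was itself tilted the same way.

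Scaling by total UMIs in place of TMM moved all genes of a type together, by between -1.21 (PANETH) and 0.64 (NON-EC) in their median. It turned the median of the OXPHOS genes to -0.12 in GOBLET-PRE, 0.04 in EEC-PRE and 0.41 in TUFT. OXPHOS genes higher and lower in every library then numbered 8 and 36 in GOBLET-PRE, 29 and 20 in EEC-PRE, 78 and 1 in TUFT and 78 and 1 in SEC-PRO. They numbered 13 and 37 in EC, 18 and 29 in NON-EC, 1 and 80 in GOBLET, 0 and 84 in PANETH and 3 and 37 in PANETH-PRE. Shares over all genes are not given for this scaling, and these counts include the shift of all genes. They are therefore no result about the OXPHOS genes alone. The median of all genes was then 0.39 in TUFT, 0.26 in SEC-PRO, 0.50 in EC, -0.59 in GOBLET and -1.18 in PANETH. It was -0.01 in GOBLET-PRE, 0.29 in EEC-PRE, 0.56 in NON-EC and -0.06 in PANETH-PRE. The scalings differ only by a factor per sum, so relative to the median of all genes they must give nearly equal values. Their closeness is therefore no support for either scaling. Values relative to that median, by TMM and by total UMIs, were 1.24 and 1.24 in ENTERO-PRO and 0.72 and 0.72 in ISC. They were -0.64 and -0.62 in EC, and -0.62 and -0.60 in NON-EC. In GOBLET they were -0.29 and -0.32, in PANETH -0.28 and -0.34, and in GOBLET-PRE -0.10 and -0.11. In SEC-PRO they were 0.10 and 0.11, in EEC-PRE -0.26 and -0.25, and in TUFT only 0.003 and 0.02.

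By role, the subunits of complex II stood at the highest median in ENTERO-PRO, 1.58. Within it, Sdhb differed by 1.89 (SD 0.32, n = 4 libraries) and had 569, 764, 478 and 361 CPM. Sdhd, a membrane anchor, differed by 1.73, Sdha, the flavoprotein that oxidises succinate, by 1.39, and Sdhc, the other anchor, by 1.32. All of them were higher in every library, and WT replicate 2 had the highest CPM of each.

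The other subunit groups lay between 1.19 and 1.37 in ENTERO-PRO, at 1.35 for the core and 1.19 for the accessory subunits of complex I, 1.32 for complex III, 1.20 for complex IV, 1.32 for the F1 and 1.37 for the Fo and stalk subunits. Cox4i1 had 2525, 2753, 2460 and 1979 CPM there, against 1011, 1047, 814 and 1046 CPM in NON-EC. Atp5b had 1741, 1887, 1532 and 1423 CPM in ENTERO-PRO, and 645, 657, 564 and 647 CPM in EC. For both genes the lowest ENTERO-PRO library was above the highest library of the other type.

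The assembly factors had lower medians in ENTERO-PRO than the subunit groups. Those of complex I had medians of 0.80 in ENTERO-PRO and 1.00 in ISC, and those of complex II 0.75 and 0.47. Ndufaf6, needed for an early step of complex I assembly, was the highest of them in ISC, with a difference of 2.39 (SD 0.96) from 34.7, 47.5, 52.8 and 29.4 CPM. It was the lowest in GOBLET, at -2.18 (SD 1.02), where the libraries held 2, 0, 0 and 2 UMIs. Ndufaf3 differed by 1.31 (SD 0.29, n = 3 libraries) in TUFT, with 112 and 141 CPM in WT and 66.1 CPM in APC-KO replicate 2. Sdhaf4, a chaperone of the flavoprotein subunit of complex II, differed by 1.12 (SD 0.03) in TUFT. Ndufaf7, a methyltransferase of complex I assembly, was lowest in ENTERO-PRO at -0.91, but its SD was 2.09. APC-KO replicate 1 held 0 UMIs of it there, and the other libraries differed by 0.53, -0.15 and -0.02.

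Cox7a2l had a pattern of its own among the 87 genes, in that it alone was highest in EC. It encodes a protein that joins complexes III and IV into supercomplexes. In EC it had 818, 840, 779 and 771 CPM, a difference of 1.07 (SD 0.22) and higher in 4 of 4 libraries. In GOBLET it had 72.7, 53.8, 49.0 and 108 CPM, a difference of -1.76 (SD 0.54). Of the genes with at least 50 mean CPM over all kept cells it was also furthest above the other types in EEC-PRE, by 0.52 (SD 0.26), with 491, 567, 530 and 453 CPM. Cox7a2, the ubiquitous subunit of the family, instead had 410, 258, 457 and 392 CPM in EC and 1026, 730, 1195 and 842 CPM in ENTERO-PRO. Of the UMIs of the Cox7a family, Cox7a2l made up 66.0%, 75.9%, 62.5% and 65.0% in EC and 19.9%, 20.9%, 12.8% and 23.1% in GOBLET, and the groups of 4 values did not overlap.

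Cox7a1, known as the heart and muscle isoform, had the widest range over types of the 87 genes, 5.27 on the log2 scale. It was highest in ENTERO-PRO by 3.19 (SD 0.16), with 107, 65.1, 169 and 151 CPM from 81, 30, 12 and 378 UMIs. In ISC it had 15.2, 6.38, 39.6 and 20.4 CPM. In NON-EC it rested on 6, 3, 0 and 12 UMIs, so its low end there, -2.08 (SD 1.97), is imprecise. Even in ENTERO-PRO it made up between 4.73% and 10.7% of the family's UMIs.

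**Figure D3:**
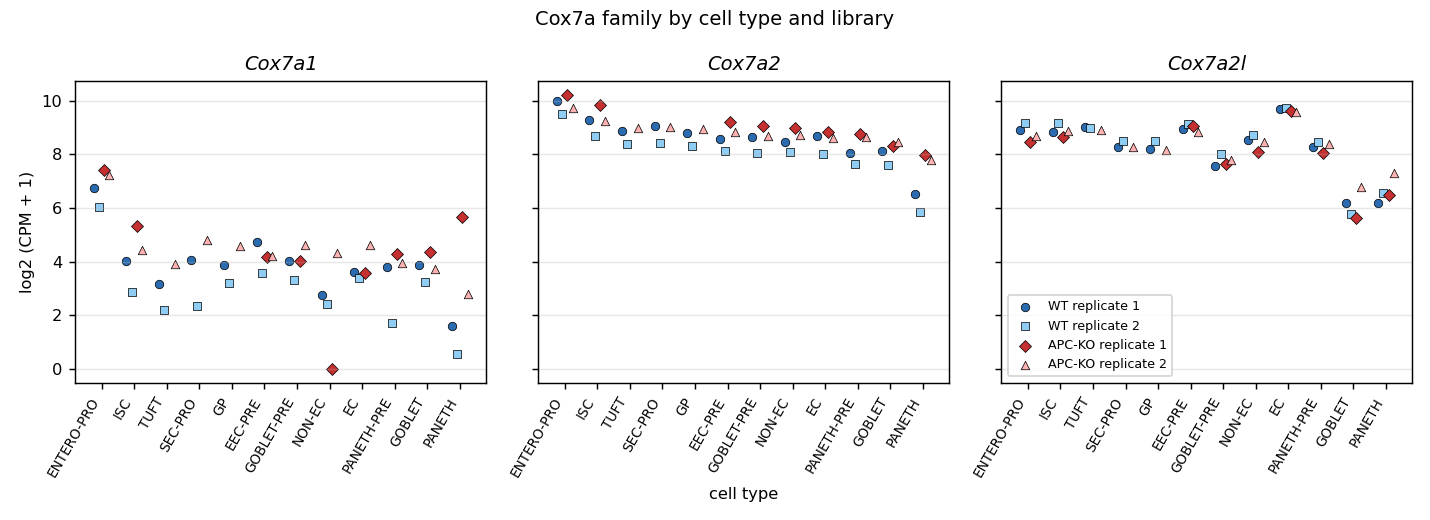
Levels of Cox7a1, Cox7a2 and Cox7a2l (y axis, log2(CPM + 1)) in the 12 cell types (x axis), with 1 point per library that had at least 10 cells of the type. Cox7a1 and Cox7a2 are highest in ENTERO-PRO, and Cox7a2l is highest in EC and lowest in GOBLET and PANETH.

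The genes for subunit c of ATP synthase, Atp5g1, Atp5g2 and Atp5g3, encode an identical mature protein. Atp5g1 was the lowest of the genes with at least 50 mean CPM in TUFT, at -0.52 (SD 0.12), and in EEC-PRE it differed by -1.15 (SD 0.13) with 389, 351, 294 and 374 CPM. Atp5g2 differed by 0.44 (SD 0.18) in EEC-PRE, with 696, 727, 715 and 542 CPM. In EEC-PRE it made up 49.8%, 51.9%, 49.4% and 45.1% of the UMIs of the 3 genes, against 21.1%, 22%, 12.4% and 20.4% in ENTERO-PRO. The share of Atp5g1 was the reverse, 27.8%, 25.1%, 20.3% and 31.1% in EEC-PRE and 54.0%, 49.0%, 54.9% and 54.5% in ENTERO-PRO.

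Among the 76 genes with at least 50 mean CPM over all kept cells, single genes departed in other types too. Cox6c, a subunit of complex IV, was the highest of them in TUFT, by 1.08 (SD 0.16, n = 3), with 1451, 1030 and 1677 CPM in the libraries with enough cells. Ndufa6 was the highest in GOBLET, by 1.11 (SD 0.48), with 408, 294, 323 and 383 CPM, and the lowest in SEC-PRO, at -0.39 (SD 0.13). Ndufa5 was the highest in ISC, by 1.48 (SD 0.65), and the lowest in PANETH-PRE, at -0.76 (SD 0.52). Ndufv3 was the lowest in EEC-PRE, at -1.21 (SD 0.26), and in ISC, at -0.01 (SD 0.14), and the highest in GOBLET-PRE, at 0.63 (SD 0.12). Ndufa7 was the flattest, with a range of 0.69 over the types. Ndufa5, Ndufa6, Ndufa7 and Ndufv3 are accessory subunits of complex I, which surround its catalytic core.

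The remaining extremes are also among the genes with at least 50 mean CPM. In EC the lowest was Ndufa3 at -1.25 (SD 0.11), and in NON-EC Cox5a, a subunit of complex IV, at -1.30 (SD 0.36). Ndufs1, the largest core subunit of complex I, was the lowest in GOBLET-PRE at -0.34 (SD 0.09) and the highest in NON-EC at -0.17 (SD 0.20). In PANETH the extremes were Ndufs4 at -0.67 (SD 0.36) and Ndufa1 at 0.27 (SD 0.45), and in PANETH-PRE the highest was Atp5e, the epsilon subunit of ATP synthase, at 0.33 (SD 0.16). In GP they were Ndufa6 at -0.13 (SD 0.05) and Atp5g1 at 0.44 (SD 0.07), and in SEC-PRO the highest was Atp5g2 at 0.45 (SD 0.03). The differences of Ndufa1 in PANETH and Ndufs1 in NON-EC were within their SD.

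Other genes of energy metabolism shared part of this pattern. The 13 mitochondrially encoded subunit genes had medians of 0.64 in ENTERO-PRO (13 of 13 higher in every library), 0.32 in ISC (3 of 13), -0.75 in EC (13 of 13 lower) and -0.78 in NON-EC (12 of 13 lower). For 18 citric acid cycle genes the medians were 1.19, 0.60, -0.53 and -0.48 in these types, and for 77 mitochondrial ribosomal genes 0.87, 0.83, -0.46 and -0.50. Of 17 glycolysis genes 14 entered, with medians of 1.35, 0.28, -0.14 and -0.34, and in GOBLET 0.50 where the OXPHOS genes had -0.32. Cytosolic ribosomal protein genes had 0.29 in ENTERO-PRO and 0.79 in ISC. The 13 genes of mitochondrial biogenesis that entered had 0.01 in ENTERO-PRO and 0.54 in ISC. Thus the ENTERO-PRO value of the OXPHOS genes was shared by the citric acid cycle and glycolysis lists, and exceeded those of the mitochondrially encoded, biogenesis and cytosolic ribosome lists, with no test of these differences.

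The genotypes were compared to ask whether loss of Apc goes with other levels of these genes, in all kept cells (ALL), in EC, GOBLET and GOBLET-PRE, and in PANETH and PANETH-PRE cells summed (PANETH-LINEAGE). None of the OXPHOS genes passed an adjusted p of 0.05 by edgeR in any of the 5 comparisons. The genes tested numbered 90, 88, 83, 89 and 88 in this order, and those at an unadjusted p under 0.05 numbered 9, 23, 11, 19 and 29. Over all genes 0%, 0%, 0.0837%, 0.00974% and 0.663% passed the adjusted threshold, and 3.71%, 8.39%, 11.2%, 7.95% and 14.8% the unadjusted one. Split by direction, 0.0335% of all genes passed as higher and 0.0502% as lower in GOBLET, and 0.244% and 0.419% in PANETH-LINEAGE. By the DESeq2 Wald test 0, 0, 0, 1 and 5 passed, and 23, 6, 6, 38 and 38 of all genes. That test gave no adjusted p for 8002 of all 8599 genes in PANETH-LINEAGE, among them 45 of the 88 OXPHOS genes. In EC it gave none for 4212 of all 8690 genes, 8 of them OXPHOS genes. Its counts there are therefore not adjusted over the same genes as those of edgeR. ALL sums the types in proportions that differ between libraries, also for the types with the largest OXPHOS shares. In the order WT replicate 1, WT replicate 2, APC-KO replicate 1 and APC-KO replicate 2, all kept cells numbered 4814, 3821, 356 and 6243. Of these, 575, 228, 13 and 1245 were ISC, and 116, 65, 11 and 468 were ENTERO-PRO. The part of this mix in the values of ALL was not tested.

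The values nevertheless leaned one way in 4 of the 5 comparisons. The median log2 fold change of the OXPHOS genes (APC-KO over WT) was 0.21 in ALL, 0.19 in EC, -0.04 in GOBLET, 0.16 in GOBLET-PRE and 0.43 in PANETH-LINEAGE, with medians of all genes between 0.00 and 0.01. Positive values were found in 66, 59, 41, 59 and 78 of the genes. Both APC-KO libraries lay above both WT libraries for 38, 34, 13, 36 and 55 of them, where all genes had 14.4%, 18.5%, 20.9%, 19.4% and 20.6%. They lay below for 12, 6, 26, 9 and 1, where all genes had 16.7%, 19.4%, 21.6%, 19.1% and 21.7%. The summed share was higher in APC-KO by 0.45 percentage points in ALL, 0.34 in EC, 0.19 in GOBLET, 0.31 in GOBLET-PRE and 1.01 in PANETH-LINEAGE. Its two-sided exact permutation p was 0.667 in ALL and GOBLET and 0.333 in the others, the smallest that 2 against 2 libraries allow.

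**Figure D4:**
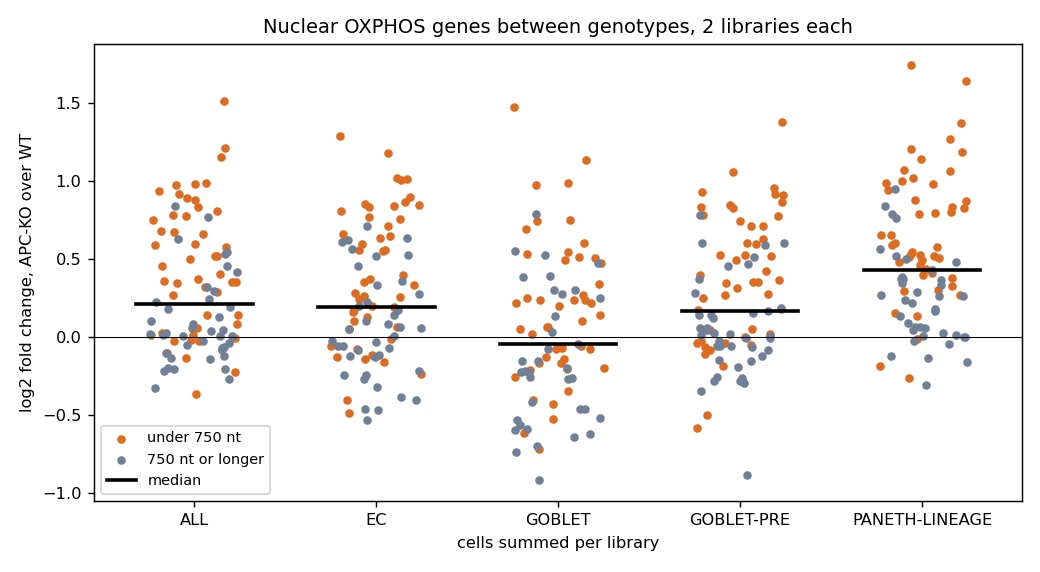
Log2 fold change, APC-KO over WT (y axis, edgeR), of each nuclear OXPHOS gene in the 5 comparisons (x axis), with genes of transcripts under 750 nt in orange, longer ones in grey and the median as a bar. The median is lowest in GOBLET (-0.04) and highest in PANETH-LINEAGE (0.43), and the median of the orange points is above that of the grey ones in each comparison.

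The genes nearest the threshold were small subunits. Atp5k, subunit e of ATP synthase (chromosome 5, 108433244 to 108434448, minus strand), had 83.2, 47.9, 170 and 478 CPM in PANETH-LINEAGE. By edgeR this was 1.74 on the log2 scale (SE 0.35), with an adjusted p of 0.0502. In GOBLET it had 106, 65.1, 162 and 325 CPM, which edgeR gave as 1.47 (SE 0.35, adjusted p 0.258). In GOBLET-PRE it had 193, 116, 242 and 506 CPM, or 1.37 (SE 0.37, adjusted p 0.522, edgeR). The libraries did not overlap in these 3 comparisons, and APC-KO replicate 2 was the highest in each.

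Ndufa5 had 35.4, 18.3, 69.4 and 125 CPM in PANETH-LINEAGE, which edgeR gave as 1.37 (SE 0.29) with an adjusted p of 0.063. Uqcr11, a small subunit of complex III, had 259 and 185 against 377 and 476 CPM in EC (1.01, SE 0.23, adjusted p 0.341, edgeR). In GOBLET it had 165 and 111 against 289 and 307 CPM (0.97, SE 0.27, adjusted p 0.267, edgeR). Ndufv3 in EC had 169 and 128 against 238 and 272 CPM (0.85, SE 0.21, adjusted p 0.395, edgeR), while Ndufa2 in GOBLET-PRE had 220 and 135 against 296 and 342 CPM (0.95, SE 0.27, adjusted p 0.534, edgeR). In ALL the lowest unadjusted p-values were those of Ndufv3, 0.83 (SE 0.26), and Cox7a1, 1.21 (SE 0.38), both with an adjusted p of 1.00 (edgeR). For each of these genes both APC-KO libraries were above both WT libraries, and WT replicate 2 was the lowest.

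By role, the complex IV subunits had the highest medians in ALL, GOBLET-PRE and PANETH-LINEAGE, at 0.58, 0.53 and 0.80, and 0.52 in EC and 0.24 in GOBLET. The core subunits of complex I had -0.02 in ALL, 0.08 in EC, -0.27 in GOBLET, -0.06 in GOBLET-PRE and 0.24 in PANETH-LINEAGE, and in GOBLET 0 of 7 were positive. The subunits of complex II had -0.20, -0.17, -0.33, -0.26 and 0.06. The accessory subunits of complex I had 0.35, 0.33, 0.07, 0.28 and 0.52. Of the most abundant genes, Cox4i1 had log2 fold changes of 0.06, 0.05, -0.17, -0.02 and 0.41, Atp5b 0.03, -0.03, -0.16, 0.02 and 0.37, and Sdhb -0.20, -0.27, -0.59, -0.26 and 0.06. No gene of the mitochondrially encoded, carrier and assembly, citric acid cycle, glycolysis, biogenesis or ribosomal lists passed the adjusted threshold in any of the 5 comparisons (edgeR). The 13 mitochondrially encoded genes had medians of 0.33, 0.43, 0.15, 0.27 and 0.25, with 3, 3, 4, 3 and 4 of them at an unadjusted p under 0.05. Of 18 citric acid cycle genes (17 tested in GOBLET) 0, 1, 2, 0 and 2 were under it, and of 82 cytosolic ribosomal protein genes 11, 20, 14, 23 and 19. For the glycolysis list the numbers were 0, 4, 3, 0 and 3, for the carrier and assembly list 2, 6, 2, 7 and 6, for the biogenesis list 1, 0, 0, 1 and 1, and for the mitochondrial ribosomal list 2, 7, 8, 5 and 10.

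These differences went with transcript length and with library. Transcripts of the 97 genes had a median length of 704 nt, and 55 were under 750 nt. Length here is the median over a gene's annotated protein-coding transcripts, whichever of them is expressed. A gene can therefore fall in a class to which its expressed transcript does not belong. Ndufs1, the largest core subunit of complex I, counted as 651 nt. How far the length classes depend on this was not tested. In ALL, the 49 tested genes under 750 nt had a median log2 fold change of 0.45, and the 41 longer ones 0.02. In EC the medians were 0.36 and 0.03, in GOBLET 0.14 and -0.22, in GOBLET-PRE 0.38 and 0.01, and in PANETH-LINEAGE 0.59 and 0.23. Among the OXPHOS genes, short transcripts were also the ones that separated the WT libraries most. In ALL, WT replicate 2 lay below WT replicate 1 by a median of 0.77 (log2 CPM) for the 10 genes under 500 nt with at least 50 CPM. The difference was 0.54 for 34 genes of 500 to under 750 nt and 0.05 for 13 genes of 750 to under 1000 nt. It was 0.02 for 16 genes of 1000 to under 2000 nt, but 0.37 for the 3 genes of 2000 nt and over. Genes outside the set with transcripts under 500 nt lay lower by 0.34, but the 321 of 500 to under 750 nt by only 0.06. For APC-KO minus WT in log2 CPM, these 321 genes had a median of -0.10, where the 34 OXPHOS genes of that length had 0.27. Most of the short OXPHOS genes thus differed more than other genes of their length. Spearman's rho with length over 76 OXPHOS genes, which share the libraries and so are not independent, was 0.62 for the WT libraries, 0.06 for the APC-KO libraries and -0.60 for APC-KO against WT.

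**Figure D5:**
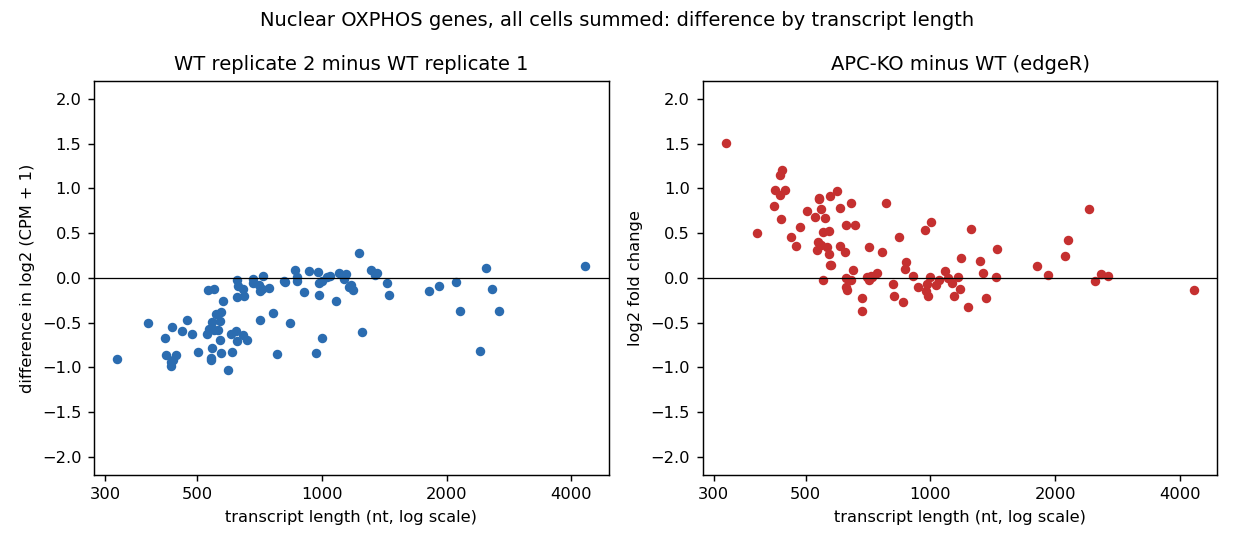
Difference in log2 of each nuclear OXPHOS gene over all kept cells (y axes) against the length of its transcript (x axes, log scale), for WT replicate 2 minus WT replicate 1 (left) and APC-KO over WT (right). Genes under 750 nt are mostly below 0 on the left and above 0 on the right, while most longer genes lie nearer to 0 in both.

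Without WT replicate 2 the median log2 fold changes of the OXPHOS genes under 750 nt were 0.22 in ALL, 0.23 in EC, -0.11 in GOBLET, 0.14 in GOBLET-PRE and 0.41 in PANETH-LINEAGE. Without WT replicate 1 they were 0.75, 0.71, 0.41, 0.67 and 0.88. An offset for the length trend of all genes, chosen after seeing the data, left 0, 0, 0, 0 and 2 OXPHOS genes past the adjusted threshold (edgeR). Over all genes it left 0, 0, 6, 1 and 147. The OXPHOS genes under 750 nt still had higher medians than the longer ones, 0.32 and 0.05 in ALL and 0.26 and 0.03 in EC. These medians were 0.16 and -0.08 in GOBLET, 0.28 and 0.04 in GOBLET-PRE, and 0.51 and 0.26 in PANETH-LINEAGE. Cytosolic ribosomal protein genes were lowest and highest in the same libraries, at 17.0% and 14.2% of UMIs in WT and 16.3% and 21.5% in APC-KO, and per 100 of their UMIs the OXPHOS genes had 15.6, 14.5, 15.4 and 14.4. What part RNA quality or library preparation has in these differences was not tested.

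PANETH-LINEAGE had the largest values and the most uneven make-up. It summed 106 PANETH and 122 PANETH-PRE cells in WT replicate 1, 200 and 98 in WT replicate 2, 16 and 11 in APC-KO replicate 1, and 274 and 602 in APC-KO replicate 2. Defensins made up 35.4% and 35.8% of its UMIs in WT and 29.9% and 15% in APC-KO, while its OXPHOS share was 0.97% and 0.74% in WT and 1.64% and 2.10% in APC-KO. With defensins, goblet markers, Lyz1, Itln1, Ang4 and Mmp7 left out of the total it was 1.89% and 1.5% against 2.77% and 2.83%. Per 100 cytosolic ribosomal UMIs it was 10.8 and 11.1 against 12.2 and 11.1. Within PANETH cells alone the share was 0.63% and 0.55% against 1.29% and 1.33%, and within PANETH-PRE cells 1.79% and 1.66% against 2.21% and 2.62%. The part of the cell mix and of the defensin share in the fold changes was not tested. The count past the adjusted threshold rose, for OXPHOS genes and for all genes, when either APC-KO library was left out. The median fold change of the OXPHOS genes also depended on the libraries. This median was 0.62 without APC-KO replicate 2, 0.31 without APC-KO replicate 1, 0.61 without WT replicate 1 and 0.32 without WT replicate 2.

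Whether the genotype difference itself differed between EC, GOBLET, GOBLET-PRE and PANETH-LINEAGE was tested as an interaction, with the library as a block. None of 89 OXPHOS genes passed the adjusted threshold (edgeR), while 2.35% of all genes passed. At an unadjusted p under 0.05 (edgeR) were 11 of the 89, and 1197 of all 10300 genes, a similar share. For Ndufb11, an accessory subunit of complex I with an unadjusted p of 0.0178, the fold change relative to EC differed by -0.88 in GOBLET, -0.24 in GOBLET-PRE and -0.25 in PANETH-LINEAGE (adjusted p 0.268, edgeR). The number called rose, for OXPHOS genes and for all genes, when either APC-KO library was left out. By the DESeq2 likelihood ratio test 1 of 89 OXPHOS genes and 83 of all 10300 genes were called. That test gave no adjusted p for 5192 of the 10300.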

How the data were processed

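The files held UMI counts per gene and barcode, deposited unfiltered, and per-cell tables in which the authors gave each cell's UMI and gene counts and its percent of mitochondrial UMIs. The remaining, other values the authors deposited there are each cell's library and its type, 1 of 12. The submitters' processing notes name Cell Ranger 3.0.2, STAR and mm10. How cells were filtered and named and how doublets were treated is not given in the sources used here.

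UMIs of the tabulated cells were summed per library and type. Genotypes were compared in sums with at least 20 cells per library, with edgeR 4.0.16 in R 4.3.3 (TMM, filterByExpr, quasi-likelihood test, Benjamini-Hochberg adjustment over all genes at 0.05). Per-sample CPM values printed are by total UMIs. DESeq2 1.42.0 was an alternative. Types were described in sums with at least 10 cells, pseudocount 1. Python 3.11.15 with pandas 2.3.3 and scipy 1.17.1 was used for shares and exact permutation tests.

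Gene positions and transcript lengths come from GENCODE vM21 (GRCm38), in which 99.6% of the 31053 IDs were found. A length is the median over a gene's annotated protein-coding transcripts, or over all its transcripts where it has none. Tested on simulated counts in which 200 genes differed by 2 (log2), edgeR called 200 in ALL, 188 in EC, 193 in GOBLET, 199 in GOBLET-PRE, 195 in PANETH-LINEAGE and 110 for the interaction. Every simulated gene had the same dispersion, the changed genes were well covered, and no difference between libraries of a genotype was added. These counts therefore do not give the power for smaller changes in the real libraries.

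The genes and lists were chosen with earlier results of these data known. Genes named were, per comparison, the largest rises and falls past the threshold, or the 2 with the lowest unadjusted p where none passed. Also named were the most abundant gene of each complex, the highest and lowest gene of each type (at least 50 CPM), the isoform groups, the assembly factors and Apc. Genes outside this rule were named after their values were seen. 1 gene that this rule names is not reported here, though it is included in all counts and medians. Alternatives were other normalisations and filters, a block for the replicate number, leaving out single libraries or gene classes, cells with at least 2000 UMIs, and subtracting free RNA (barcodes of 1 to 50 UMIs) at 5% of each sum. No label says that replicate numbers pair the samples.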

Additional observations from a re-analysis of the deposited data

How the results depend on the processing

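Of the genotype results for named genes, 99 kept their side of the threshold and direction over the alternatives, 35 passed it only under an alternative, and 0 changed direction. The number of OXPHOS genes past an adjusted p of 0.05, 0 by edgeR in all 5 comparisons, moved as follows. With no filter on low counts it was 7 in EC, 2 in GOBLET, 12 in GOBLET-PRE and 15 in PANETH-LINEAGE. Over all genes 174 of 15542, 79 of 12750, 280 of 15920 and 477 of 15042 then passed in these comparisons. With the replicate number as a block it was 2 in GOBLET (73 of all 5974 genes), 5 in GOBLET-PRE (110 of 10272), 6 in PANETH-LINEAGE (124 of 8599) and 0 in ALL and EC. Deviations of same-numbered libraries correlated at -0.23 in ALL, -0.05 in EC, -0.02 in GOBLET, -0.01 in GOBLET-PRE and 0.01 in PANETH-LINEAGE. With a single difference between replicates per genotype, these values cannot decide whether same-numbered libraries were paired. Crossed pairs (replicate 1 of one genotype with replicate 2 of the other) were also used as the block, chosen after seeing the data. The number was then 11 in EC (132 of all 8690 genes) and 1 in PANETH-LINEAGE (49 of 8599). The DESeq2 Wald test gave 1 in GOBLET-PRE (38 of all 10272 genes) and 5 in PANETH-LINEAGE (38 of 8599, with no adjusted p for 8002). The DESeq2 likelihood ratio test of the interaction gave 1 (83 of 10300, with none for 5192). In PANETH-LINEAGE, DESeq2 size factors gave 1 (74 of all 8599 genes), and leaving out mitochondrial, ribosomal protein and defensin genes gave 1 (61 of 8419). There, subtracting free RNA gave 2 (124 of 8369) and the length offset gave 2 (147 of 8599). PANETH cells alone gave 1 (98 of all 6942 genes) and PANETH-PRE cells alone gave 3 (85 of 5568), both also chosen after seeing the data.

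With 1 library left out, the lone library of an arm being assumed to vary like the others, the number ranged from 0 to 2 in ALL, 0 to 13 in EC (13 when APC-KO replicate 1 was left out, 6 for APC-KO replicate 2), 0 to 1 in GOBLET, 0 to 4 in GOBLET-PRE, 0 to 16 in PANETH-LINEAGE and 0 to 23 for the interaction. The median fold change in GOBLET-PRE then ranged from 0.0523 to 0.34, and that in GOBLET from -0.25 to 0.11, turning positive without WT replicate 1 (0.11) or APC-KO replicate 1 (0.053). With the length offset it was 0.055.

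Scaling by total UMIs gave median type differences of -0.12 in EC, 0.0407 in EEC-PRE, -0.91 in GOBLET, -0.12 in GOBLET-PRE, 0.16 in GP, 0.94 in ISC, -0.0447 in NON-EC, -1.52 in PANETH, 0.36 in SEC-PRO and 0.41 in TUFT. Without mitochondrial, ribosomal protein and defensin genes they were -0.66 in EC, 0.15 in GP, 0.21 in SEC-PRO and -0.0745 in TUFT, and the genotype difference of the share was 0.53 points in GOBLET-PRE and 1.61 in PANETH-LINEAGE. Free RNA subtraction gave 0.16 in GP, and sums of at least 20 cells gave -0.54 in EC and 0.32 in GOBLET-PRE. The 27 PANETH-LINEAGE cells of APC-KO replicate 1 and its 11 ENTERO-PRO cells limit the values that rest on them.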
